A study of Mus musculus with 15 samples.

Results

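Cytochrome c oxidase, the last enzyme of the mitochondrial respiratory chain, is built from a core encoded by the mitochondrial genome and a ring of small subunits encoded in the nucleus. For several of the small subunits the mouse has more than 1 gene, and the genes differ in the tissues that use them. The results below describe 9 such genes, chosen by name as pairs of a tissue isoform and its ubiquitous partner: Cox7a1 with Cox7a2 and the related Cox7a2l, Cox8b with Cox8a, Cox6a2 with Cox6a1, and Cox4i2 with Cox4i1. All 9 were found among the 43352 genes of the count table, and all 9 passed the filter on low counts that left 19645 genes for testing.

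The libraries came from perivascular adipose tissue, the fat that surrounds the aorta, of mice aged 11 weeks. tPVAT was taken at the thoracic aorta and aPVAT at the abdominal aorta. Control mice carried the floxed Prdm16 allele (Prdm16flox), and cKO mice carried the same floxed allele together with AdipoQCre, a recombinase driven by regulatory DNA of Adipoq, an adipocyte gene. Both genotypes therefore share the floxed allele, and recombination is directed to adipocytes while the vascular, immune and other cells of the tissue keep the gene. There were 4 libraries each of tPVAT control, tPVAT cKO and aPVAT control, and 3 of aPVAT cKO (numbers 1, 3 and 4). Nothing in the labels states that libraries of 1 group came from different mice, so the p-values below measure the spread between these libraries only. Levels are CPM (counts per 1e+06 of the TMM-scaled library), given for libraries 1 to 4 in order. Differences are log2 fold changes from edgeR's quasi-likelihood test with their standard error (SE), and adjusted p-values are Benjamini-Hochberg values over all 19645 genes, with a threshold of 0.05.

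Library totals ran from 37.8 M to 68.7 M counts. Prdm16, the deleted gene, averaged 47.3 ± 6.04 CPM in the tPVAT control group against 22.4 ± 1.07 CPM in tPVAT cKO (SD, each n = 4; edgeR adjusted p = 2.22e-06). The aPVAT averages were 23.7 ± 2.22 CPM for controls (n = 4) and 16.1 ± 1.99 CPM for cKO (n = 3; edgeR adjusted p = 0.00992). A whole-gene count includes exons outside the deleted stretch, which the labels do not name. Adipocyte markers were abundant in every library: the summed level of 10 such genes was 17979 to 30530 CPM. Ucp1, the uncoupling protein of thermogenic fat, averaged 6256 CPM in tPVAT controls and 546 CPM in aPVAT controls. These are bulk libraries, in which fewer cells of a type and less RNA per cell cannot be told apart.

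The tissue isoforms have known places of use. Cox7a1 and Cox6a2 are the heart and skeletal muscle forms of subunits VIIa and VIa. Cox8b is the muscle form of subunit VIII, and in rodents Cox7a1 and Cox8b are also used as markers of brown fat. Cox4i2 is the form of subunit IV found in lung and other oxygen-sensing tissues, and in mice it also marks pericytes. Cox7a2, Cox8a, Cox6a1 and Cox4i1 are the forms present in most tissues, and Cox7a2l (also called Scaf1) is a relative of subunit VIIa that joins the enzyme to complex III in supercomplexes.

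The regulatory sequence just before the gene start differed between the partners, and 4 promoters are shown for that reason. Promoters from the RefSeq table (GRCm38.p6) were found for 6 of the 9 genes, Cox7a1, Cox7a2, Cox7a2l, Cox8b, Cox8a and Cox6a1. The 250 bases before the start are printed 5′ to 3′ on the gene's strand, with each CG dinucleotide in capitals. They lie at chr7:30183921-30184170 on the plus strand for Cox7a1, and on the minus strand at chr9:79759854-79760103 for Cox7a2, chr7:140900447-140900696 for Cox8b and chr19:7217617-7217866 for Cox8a.
Cox7a1: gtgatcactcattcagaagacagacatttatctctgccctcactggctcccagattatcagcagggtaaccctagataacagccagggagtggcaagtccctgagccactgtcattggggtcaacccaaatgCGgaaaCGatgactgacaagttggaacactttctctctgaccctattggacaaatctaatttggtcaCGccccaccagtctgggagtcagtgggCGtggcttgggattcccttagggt
Cox7a2: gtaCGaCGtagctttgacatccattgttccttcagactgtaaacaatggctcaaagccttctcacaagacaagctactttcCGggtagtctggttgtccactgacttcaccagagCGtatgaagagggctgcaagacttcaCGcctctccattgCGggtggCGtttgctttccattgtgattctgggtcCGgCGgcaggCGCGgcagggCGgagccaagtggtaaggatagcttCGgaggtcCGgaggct
Cox8b: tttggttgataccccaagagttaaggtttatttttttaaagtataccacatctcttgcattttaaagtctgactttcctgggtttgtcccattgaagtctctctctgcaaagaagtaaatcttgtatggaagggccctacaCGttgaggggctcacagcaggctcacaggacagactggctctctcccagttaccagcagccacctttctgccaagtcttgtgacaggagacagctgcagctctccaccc
Cox8a: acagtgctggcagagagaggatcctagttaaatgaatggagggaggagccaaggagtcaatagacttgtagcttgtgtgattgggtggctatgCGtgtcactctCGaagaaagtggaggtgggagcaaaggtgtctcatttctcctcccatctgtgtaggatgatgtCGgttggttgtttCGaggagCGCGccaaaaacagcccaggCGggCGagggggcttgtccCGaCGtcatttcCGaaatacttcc

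The printed stretch held 4 CG dinucleotides in Cox7a1 against 14 in Cox7a2, and 1 in Cox8b against 11 in Cox8a. Over the whole window of the table (250 bases before to 50 after the start) the counts were 7 in Cox7a1 and 2 in Cox8b. They were 20 in Cox7a2, 19 in Cox7a2l, 19 in Cox8a and 32 in Cox6a1. The median of the 32544 distinct promoters in the table was 7. Both tissue isoforms with a sequence thus lay at or below that median, and the 4 broadly used genes lay above it. Observed CG was 0.333 of that expected from base composition in Cox7a1 and 0.115 in Cox8b, against 0.833 in Cox7a2, 0.851 in Cox7a2l, 0.842 in Cox8a and 1.08 in Cox6a1.

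The same windows were searched on both strands for 6 short motifs. The NRF1 motif GCGCATGCG, present in 1.76% of all promoters, was found in Cox6a1, 162 bases before the start; it reads nearly the same on both strands, so the overlapping matches are 1 place. The ETS motif CCGGAAG, present in 8.91% of promoters, was found at 2 places in Cox8a and 1 in Cox6a1. In the 6 windows there was no match to the letters TCAAGGTCA (ERR, 0.412% of promoters), AAGGTCA (4.71%), AANATGGCG (YY1, 2.39%) or CTAAAAATA (MEF2, 0.516%). The AAGGTCA motif is contained in TCAAGGTCA. These are letter matches only.

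The mean TMM-scaled level of 7 of the 9 genes followed 1 order of groups, from tPVAT control down through tPVAT cKO and aPVAT control to aPVAT cKO. The genes in that order were Cox7a1, Cox7a2, Cox7a2l, Cox8b, Cox8a, Cox6a1 and Cox4i1. Libraries overlapped between tPVAT cKO and aPVAT control for Cox7a2l, and between the aPVAT groups for Cox7a2 and Cox8a. With library totals only, Cox7a2l was higher in aPVAT than in tPVAT. The share of all genes in this order is not given here. Cox6a2 was present in tPVAT and close to absent in aPVAT. Cox4i2 was low and at about the same level in all 4 groups. The group means of Cox7a1 and Cox8b spanned a wider fold range than those of their partners.

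**Figure D1:**
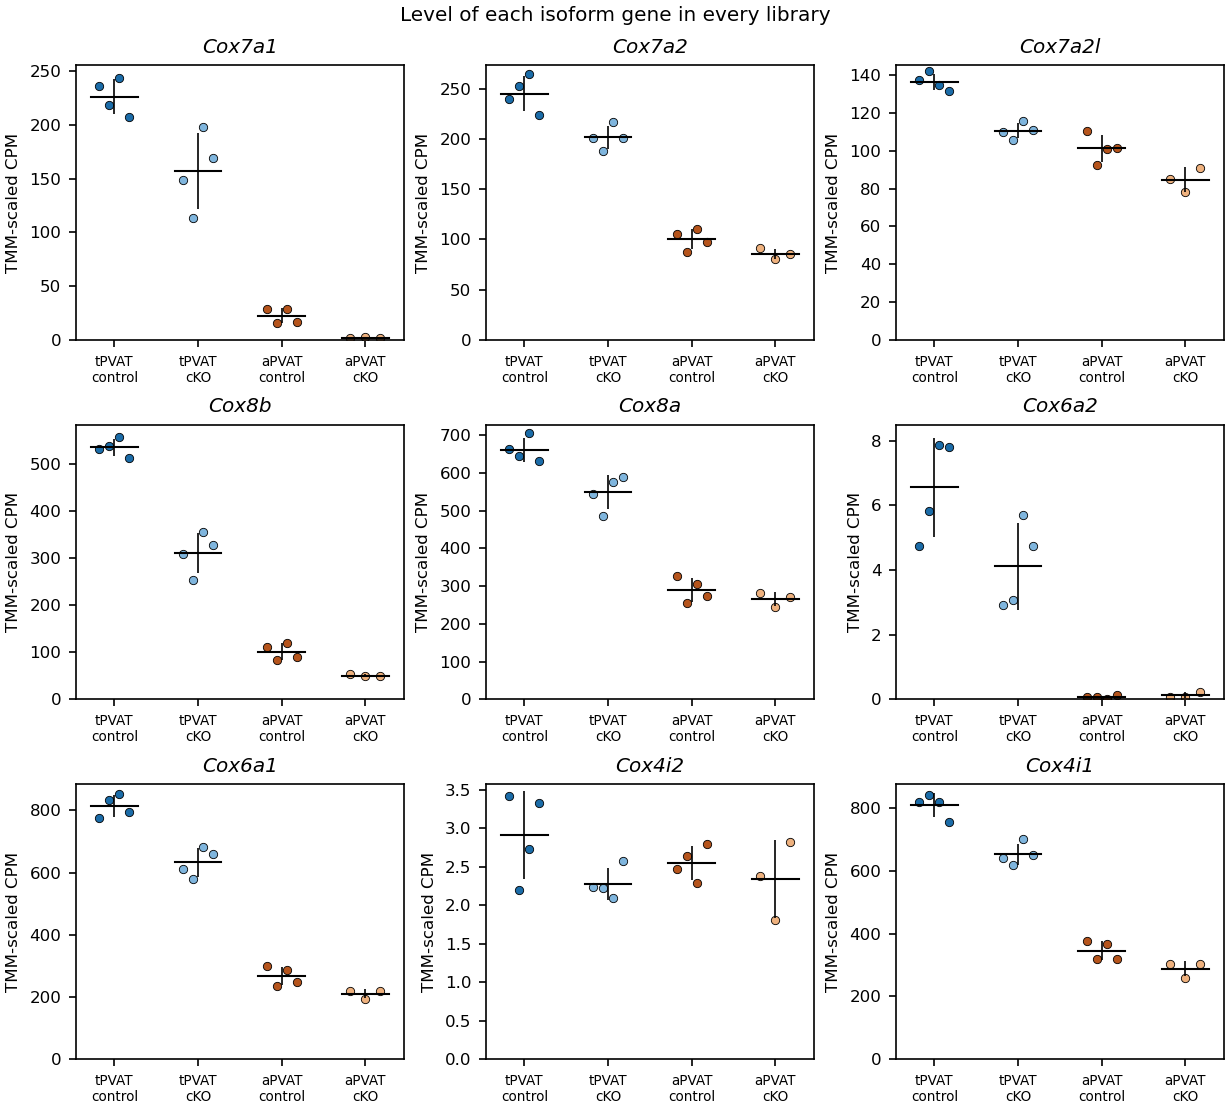
Level of each of the 9 genes in every library, in TMM-scaled CPM on linear axes that start at 0 and differ between panels. Points are libraries, horizontal bars are group means and vertical bars are ± 1 SD (n = 4, and n = 3 for aPVAT cKO). Cox7a1 is near 0 in aPVAT cKO, Cox6a2 is near 0 in both aPVAT groups, and the groups overlap for Cox4i2.

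Cox7a1 (ENSMUSG00000074218, chromosome 7, 30184144 to 30186078, plus strand) is the muscle and brown fat form of subunit VIIa. Its level was 237, 219, 244 and 207 CPM in tPVAT controls and 148, 114, 198 and 169 CPM in tPVAT cKO. In aPVAT it was 28.4, 16.1, 29.0 and 16.7 CPM in controls and 1.54, 3.19 and 1.82 CPM in cKO libraries 1, 3 and 4. No library of one group overlapped a library of another. In aPVAT Cox7a1 fell 10.2-fold (log2 fold change −3.35, SE 0.289, adjusted p = 9.50e-06). In tPVAT the difference was −0.53 (SE 0.220) and missed the threshold (adjusted p = 0.140). That tPVAT value passed in 3 of 10 alternative settings. Among them were the tPVAT libraries alone (−0.51, adjusted p = 0.0244) and limma-voom weights per library (−0.53, adjusted p = 0.0238). It missed in all 8 edgeR fits that left out 1 library (adjusted p from 0.102 to 0.300).

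The genotype effect on Cox7a1 differed between the depots. The aPVAT effect minus the tPVAT effect was −2.83 (SE 0.354, adjusted p = 0.000597), and over the 15 fits that each left out 1 library it ran from −3.24 to −2.61. None of the other 8 genes passed this interaction test. Of all genes tested, 0.626% passed with the aPVAT effect below the tPVAT effect and 0.158% with it above. The estimate for Cox8b was −0.22 (SE 0.166, adjusted p = 0.824) and that for Cox6a2 was 1.46 (SE 0.672, adjusted p = 0.550). The other 6 lay between 0.01 and 0.22. Thermogenic genes showed such a difference as well: 5 of the 10 markers passed with the aPVAT effect below the tPVAT effect (median of the 10 −1.10), and Ucp1 was at −4.22 (adjusted p = 0.0256).

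Within aPVAT the libraries of a group were not alike for Cox7a1. Control libraries 1 and 3 stood at 28.4 and 29.0 CPM, and control libraries 2 and 4 at 16.1 and 16.7 CPM. Ucp1 split the same 4 libraries in the same way, at 723 and 731 CPM in libraries 1 and 3 against 363 and 365 CPM in libraries 2 and 4. In aPVAT cKO, Cox7a1 was highest in library 3 (3.19 CPM), and so was Ucp1 (47.8 CPM, against 5.55 and 3.15 in libraries 1 and 4). The summed level of the 10 thermogenic adipocyte markers ran from 742 to 1231 CPM in the aPVAT controls against 174 to 227 CPM in aPVAT cKO. Of the 10 markers 7 fell, against 0.789% of all genes. The part of this shift in the Cox7a1 result was not tested. Summed adipocyte markers in aPVAT were 22809 to 24885 CPM for controls against 24882 to 30530 CPM for cKO. Of these 10 markers 0 fell and 1 rose, where 0.743% of all genes rose.

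Cox7a2 (ENSMUSG00000032330, chromosome 9, 79755361 to 79759878, minus strand), the form of subunit VIIa used in most tissues, moved much less. It stood at 240, 253, 264 and 224 CPM in tPVAT controls and at 201, 188, 217 and 201 CPM in tPVAT cKO, with no overlap. It stood at 106, 87.6, 111 and 97.9 CPM in aPVAT controls and at 91.0, 80.7 and 85.6 CPM in aPVAT cKO, where the ranges overlapped. Cox7a2 fell in tPVAT (−0.28, SE 0.0781, adjusted p = 0.0264), and in aPVAT the difference was −0.23 (SE 0.0849, adjusted p = 0.260). The tPVAT call was lost without control library 2 or 3 and without cKO library 1, 2 or 4 (adjusted p from 0.0583 to 0.0817), and with libraries scaled by their totals only (−0.21, adjusted p = 0.0741).

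Cox7a2l (ENSMUSG00000024248, chromosome 17, 83501918 to 83517330, minus strand) stood at 137, 142, 135 and 132 CPM in tPVAT controls and at 110, 106, 116 and 111 CPM in tPVAT cKO. It stood at 110, 92.4, 101 and 101 CPM in aPVAT controls and at 85.1, 78.0 and 91.0 CPM in aPVAT cKO. It fell in tPVAT (−0.30, SE 0.0642, adjusted p = 0.00563), and in aPVAT the difference was −0.26 (SE 0.0696, adjusted p = 0.0917), although the groups did not overlap. A processed copy, Gm6969, is 97.7% identical over 342 bases and was counted at 16.6 to 26.3 CPM on average per group. Its own tPVAT difference was −0.31 (adjusted p = 0.00666), so reads of the gene and its copy may have been shared out between them.

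Cox7a1 held a changing share of the VIIa pair. To compare levels between genes, counts were divided by the length of each gene's exons. On that scale Cox7a1 made up 62.0% ± 1.25 of Cox7a1 plus Cox7a2 in tPVAT controls and 57.4% ± 4.40 in the tPVAT cKO group (SD, each n = 4). In aPVAT it made up 27.8% ± 4.70 in controls (n = 4) and 4.34% ± 1.92 in cKO (n = 3). The sum of the pair per kilobase was 683, 508, 149 and 95.0 CPM in these 4 groups. The 3 aPVAT cKO libraries lay at 2.90%, 6.52% and 3.61%, all below the lowest aPVAT control at 23.1%.

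**Figure D2:**
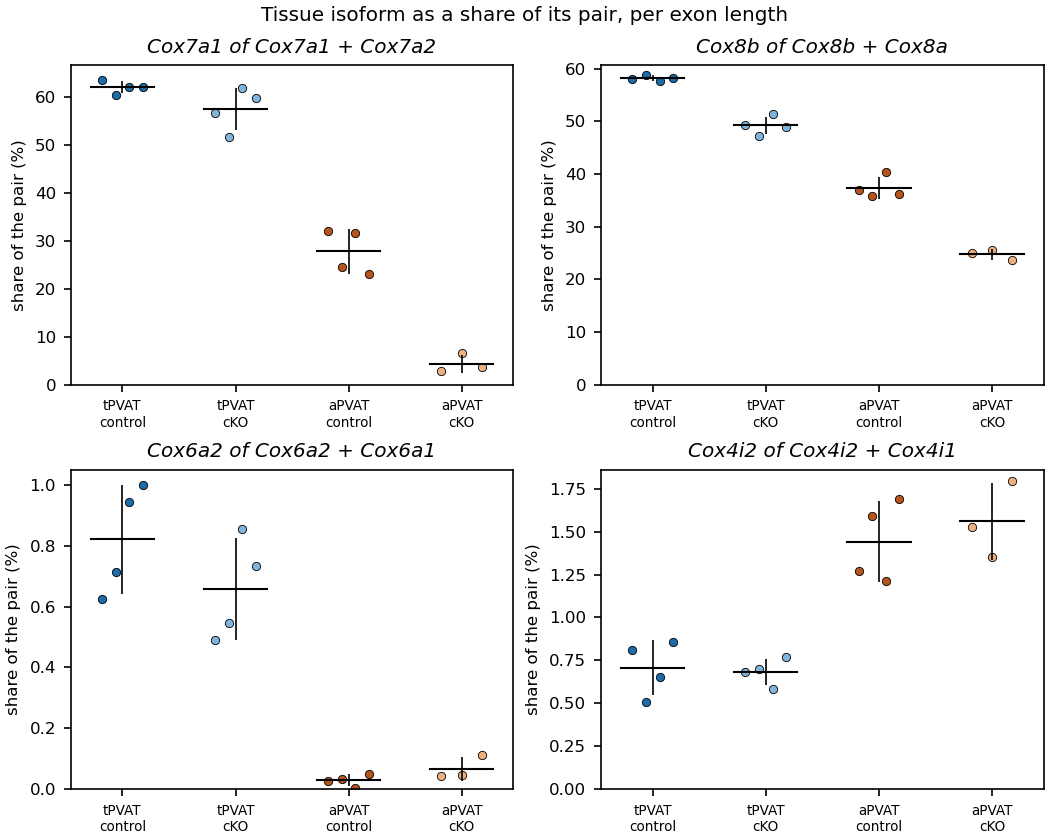
Tissue isoform as a percentage of the tissue isoform plus its ubiquitous partner, per exon length, in each library, on axes that start at 0 and differ between panels. Points are libraries and bars are mean ± SD (n = 4, and n = 3 for aPVAT cKO). The shares of Cox7a1 and Cox8b step down from tPVAT control to aPVAT cKO, and Cox4i2 is the tissue isoform with a larger share in aPVAT.

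Cox8b (ENSMUSG00000025488, chromosome 7, 140898945 to 140900446, minus strand) is the muscle and brown fat form of subunit VIII, a single helix in the inner membrane. It stood at 530, 538, 557 and 513 CPM in tPVAT controls and at 307, 254, 354 and 328 CPM in tPVAT cKO. In aPVAT it stood at 112, 82.7, 119.9 and 90.7 CPM in controls and at 54.3, 48.9 and 48.9 CPM in cKO. The 4 groups did not overlap. Cox8b fell in both depots, with a log2 fold change of −0.78 in tPVAT (SE 0.113, adjusted p = 0.000253, 1.72-fold) and −0.998 in aPVAT (SE 0.125, adjusted p = 0.000364, 1.997-fold). Both calls were kept in every fit that left out 1 library, with the highest adjusted p at 0.00149 in tPVAT and 0.00385 in aPVAT.

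Cox8a (ENSMUSG00000035885, chromosome 19, 7215153 to 7217616, minus strand), the form of subunit VIII in most tissues, stood at 662, 646, 705 and 632 CPM in tPVAT controls and at 545, 487, 576 and 589 CPM in tPVAT cKO. The 2 groups did not overlap, and the difference was −0.27 (SE 0.0845) with an adjusted p of 0.0510, just above the threshold; it passed with DESeq2 (adjusted p = 0.0181) and with limma-voom weights (adjusted p = 0.00847). In aPVAT it stood at 328, 254, 305 and 274 CPM in controls and at 281, 245 and 271 CPM in cKO. These ranges overlapped, with a difference of −0.13 (SE 0.0915, adjusted p = 0.603).

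Per exon length, Cox8b made up 58.2% ± 0.542 of Cox8b plus Cox8a in tPVAT controls and 49.2% ± 1.70 in the tPVAT cKO group (SD, each n = 4). It made up 37.4% ± 2.06 in control aPVAT (n = 4) and 24.7% ± 0.980 in aPVAT cKO (n = 3). The shares ran from 57.6% to 58.9%, from 47.3% to 51.4%, from 35.9% to 40.4% and from 23.7% to 25.6% in the 4 groups, with no overlap. Cox8b thus went from more than its partner in tPVAT controls to less than its partner in aPVAT. The sum of the pair per kilobase was 2553, 1751, 750.0 and 569.5 CPM.

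Cox6a2 (ENSMUSG00000030785, chromosome 7, 128205435 to 128206387, minus strand) is the heart and skeletal muscle form of subunit VIa. It stood at 4.75, 5.81, 7.85 and 7.79 CPM in tPVAT controls (240 to 342 counts) and at 2.93, 3.09, 5.69 and 4.74 CPM in tPVAT cKO (164 to 286 counts). The ranges overlapped, and the difference of −0.67 (SE 0.265) missed the threshold (adjusted p = 0.118). In aPVAT it was at 6, 5, 1 and 10 counts in controls and at 8, 7 and 11 counts in cKO, which is 0.0116 to 0.235 CPM. At that depth the aPVAT difference of 0.78 (SE 0.612, adjusted p = 0.633) could not be told from 0. The gene lies inside Itgad on the opposite strand and shares 70 exon bases with it; Itgad was at 0.0642 to 0.295 CPM, so some of the few aPVAT counts could belong to either gene.

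Cox6a1 (ENSMUSG00000041697, chromosome 5, 115345642 to 115348981, minus strand), the form of subunit VIa in most tissues, held nearly the whole pair. It stood at 777, 834, 851 and 795 CPM in tPVAT controls and at 613, 579, 681 and 660 CPM in tPVAT cKO, without overlap. It stood at 298, 234, 287 and 249 CPM in aPVAT controls and at 219, 192 and 217 CPM in aPVAT cKO, also without overlap. Cox6a1 fell in tPVAT (−0.36, SE 0.0829, adjusted p = 0.00884), and in aPVAT the difference of the same size missed the threshold (−0.35, SE 0.0902, adjusted p = 0.0734). Cox6a2 made up 0.821% ± 0.180 of the pair per exon length in tPVAT controls and 0.657% ± 0.168 in the tPVAT cKO group (SD, each n = 4). In aPVAT its share averaged 0.0285% in controls and 0.0663% in cKO, from a handful of counts.

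Cox4i1 (ENSMUSG00000031818, chromosome 8, 120668222 to 120674207, plus strand) is the common form of subunit IV, the largest of the nuclear subunits. It stood at 821, 842, 821 and 757 CPM in tPVAT controls and at 641, 620, 700.4 and 652 CPM in tPVAT cKO. It stood at 378, 320.4, 366 and 320 CPM in aPVAT controls and at 301, 259.8 and 303 CPM in aPVAT cKO. Neither depot showed overlap between genotypes. Cox4i1 fell in tPVAT (−0.31, SE 0.0753, adjusted p = 0.0127), and in aPVAT the difference was −0.26 (SE 0.0817, adjusted p = 0.156). Its first exons overlap Emc8 on the opposite strand by 154 bases, and Emc8 differed by −0.051 in tPVAT (adjusted p = 0.647).

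Cox4i2 (ENSMUSG00000009876, chromosome 2, 152754173 to 152765037, plus strand) stood at 3.42, 2.19, 2.73 and 3.32 CPM in tPVAT controls and at 2.23, 2.22, 2.09 and 2.57 CPM in tPVAT cKO. It stood at 2.47, 2.63, 2.29 and 2.79 CPM in aPVAT controls and at 2.38, 1.81 and 2.82 CPM in aPVAT cKO. All groups overlapped, and none of the 4 comparisons passed; the genotype differences were −0.36 in tPVAT (SE 0.159, adjusted p = 0.171), while the aPVAT value was −0.13 (SE 0.169, adjusted p = 0.784). Per exon length its share of the pair was 0.707% ± 0.159 in tPVAT controls and 0.683% ± 0.0767 in the tPVAT cKO group (SD, each n = 4). The share was 1.44% ± 0.236 in control aPVAT (n = 4) and 1.56% ± 0.225 in aPVAT cKO (n = 3), with no overlap between depots. The summed level of 14 smooth muscle and pericyte markers had medians of 3129, 2612, 3093 and 3148 CPM in tPVAT control, tPVAT cKO, aPVAT control and aPVAT cKO; its part in the Cox4i2 level was not tested.

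Counted together, 5 of the 9 genes fell in tPVAT cKO (Cox7a2, Cox7a2l, Cox8b, Cox6a1 and Cox4i1) and 0 rose. Of all genes tested, 6.61% fell and 5.44% rose in that comparison. In aPVAT cKO 2 of the 9 fell (Cox7a1 and Cox8b) and 0 rose, against 0.789% of all genes that fell and 0.743% that rose. The differences of the 5 partner genes ran from −0.36 to −0.27 in tPVAT and from −0.35 to −0.13 in aPVAT, while the median over all genes was −0.013 and −0.0099. In tPVAT the markers of cell types moved too: the summed adipocyte markers were 17979 to 19060 CPM in controls against 24602 to 25514 CPM in cKO, and 5 of those 10 genes rose. The summed thermogenic markers were 8985 to 9643 CPM against 5797 to 7095 CPM, and 3 of 10 fell (median −0.37). Ucp1, the largest part of that sum, averaged 6256 CPM against 4058 CPM. Its difference missed the threshold (−0.62, SE 0.543, edgeR adjusted p = 0.508). Among smooth muscle and pericyte markers 4 of 14 fell, and among endothelial markers 3 of 10. The part of these shifts in the tPVAT counts was not tested. The count of 2 in aPVAT was 4 without control library 2, when Cox7a2l and Cox6a1 also passed (adjusted p = 0.0346 and 0.0252).

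**Figure D3:**
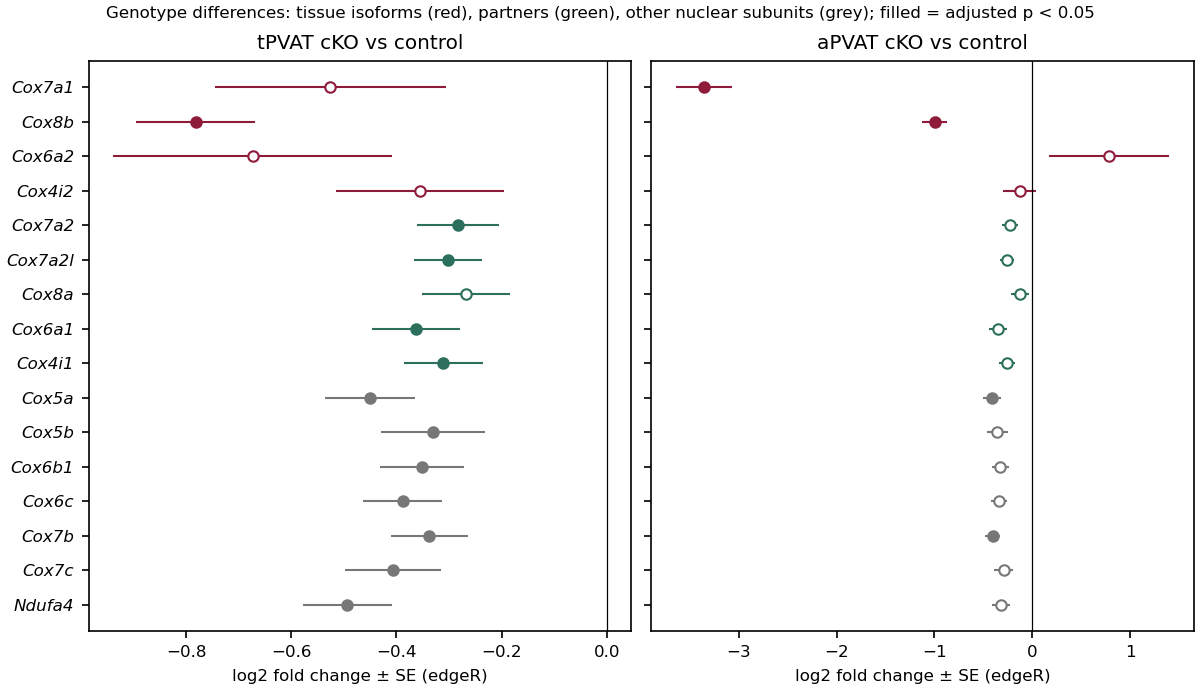
Log2 fold change of cKO against control from edgeR, in tPVAT and aPVAT, with ± 1 SE; the horizontal scales of the panels differ. Red marks tissue isoforms, green their broadly used partners and grey the 7 other nuclear subunits tested as a list, and filled points passed an adjusted p of 0.05. Cox8b is the tissue isoform that passed in both depots, and Cox7a1 in aPVAT is the largest of the differences drawn.

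Between depots 8 of the 9 genes were lower in aPVAT, in controls and again in cKO; the exception was Cox4i2. In controls 27.3% of all genes were lower in aPVAT and 29.3% higher, and in cKO 25.4% were lower and 27.2% higher. The largest differences in controls were those of the tissue isoforms: Cox6a2 (−6.50, SE 0.396), Cox7a1 (−3.33, SE 0.241) and Cox8b (−2.40, SE 0.118). Cox6a1, Cox7a2, Cox4i1 and Cox8a lay between −1.61 and −1.19, and Cox7a2l was at −0.43 (SE 0.0642, adjusted p = 3.40e-05). In cKO the depot difference was −6.16 (SE 0.323) for Cox7a1, −5.05 (SE 0.423) for Cox6a2 and −2.62 (SE 0.134) for Cox8b. The share of counts from the mitochondrial genome was 34.6% on average in tPVAT controls and 14.4% in aPVAT controls. With library totals alone the median over all genes moved to 0.78 in controls and 0.69 in cKO, and Cox7a2l was then higher in aPVAT (0.32 and 0.27), as was Cox4i2 (0.55 and 0.68).

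The ratio of the 2 isoforms within a library does not depend on how libraries are scaled. The log2 ratio of Cox8b to Cox8a counts differed by −0.52 between cKO and control in tPVAT (SE 0.0517, a 1.44-fold shift, two-sided exact permutation p = 0.0286, n = 4 and 4). In aPVAT it differed by −0.86 (SE 0.0768, 1.81-fold, exact permutation p = 0.0571, n = 3 and 4). The log2 ratio of Cox7a1 to Cox7a2 differed by −3.15 in aPVAT (SE 0.402, 8.90-fold, exact permutation p = 0.0571) and by −0.27 in tPVAT, where the groups overlapped (SE 0.135, exact permutation p = 0.0571). The Cox7a1 to Cox7a2l ratio gave −3.12 in aPVAT and −0.25 in tPVAT (exact permutation p = 0.0571 and 0.114). The smallest p these designs allow is 0.0286 with 4 against 4 libraries and 0.0571 with 3 against 4. After adjustment over the 20 ratio tests the lowest value was 0.0762, so none of the ratio differences passed by the exact test.

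Because that test cannot pass, a second model was fitted, chosen after seeing the data: edgeR over all genes with the partner's counts in place of the library total. In it the Cox8b to Cox8a ratio fell in tPVAT (−0.52, SE 0.0759, adjusted p = 0.000220) and also within aPVAT (−0.86, SE 0.0838, adjusted p = 2.44e-05), and the difference between these 2 effects missed the threshold (−0.34, adjusted p = 0.267). The Cox7a1 to Cox7a2 ratio fell in aPVAT (−3.09, SE 0.256, adjusted p = 2.68e-06) and missed the threshold in tPVAT (−0.25, SE 0.200, adjusted p = 0.340), and the 2 effects differed (−2.83, adjusted p = 0.000238). The Cox6a2 to Cox6a1 ratio passed in neither depot (adjusted p = 0.347 and 0.113), nor did Cox4i2 to Cox4i1 (adjusted p = 0.843 and 0.656). Between depots in controls, the ratio was lower in aPVAT for Cox6a2 (−4.91), Cox7a1 (−2.06) and Cox8b (−1.22), and higher for Cox4i2 (1.04, adjusted p = 3.83e-05). In cKO the depot differences of these ratios were −3.43, −4.90, −1.56 and 1.20.

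The muscle isoforms are also genes of the heart, so 15 heart muscle markers were read beside them. Their summed level was 259 to 348 CPM in tPVAT controls and 101 to 260 CPM in tPVAT cKO, and 26.1 to 31.2 CPM and 29.3 to 32.0 CPM in the 2 aPVAT groups. Of the 13 that could be tested, 13 were lower in aPVAT controls than in tPVAT controls, where 27.3% of all genes were lower. In tPVAT cKO 5 of the 13 fell (median −0.70), against 6.61% of all genes. Myh6, the heart muscle myosin, was at 84.3 to 121 CPM in tPVAT controls and at 0.162 to 0.228 CPM in aPVAT controls. Myl2, a marker of the heart ventricle, was near 0 in all groups (at most 1.26 CPM).

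In tPVAT cKO many of the TMM-scaled levels varied with these markers from library to library, for both tissue isoforms and partners, with exceptions. The heart markers summed to 131, 101, 260 and 216 CPM in libraries 1 to 4, Cox6a2 stood at 2.93, 3.09, 5.69 and 4.74 CPM, and Cox7a1, Cox8b, Cox7a2, Cox7a2l, Cox6a1 and Cox4i1 were lowest in library 2 and highest in library 3. Cox8a was lowest in library 2 (487 CPM) but highest in library 4 (589 CPM), and Cox4i2 was lowest in library 3 (2.09 CPM). The share of mitochondrial counts was also lowest in library 2 (26.5%) and highest in library 3 (31.6%). The thermogenic sum was lowest in library 2 (5797 CPM) and highest in library 4 (7095 CPM). With libraries scaled by their totals only, Cox7a1 and Cox8b were still lowest in library 2 and highest in library 3. The partners did not keep that pattern. On that scale Cox7a2 and Cox4i1 were lowest in library 4, Cox6a1 was lowest in library 1, and Cox7a2l was highest in library 2. The part of heart muscle in the tPVAT levels was not tested. In aPVAT the heart markers were at 26.1 to 32.0 CPM in all 7 libraries, and 0 of 13 differed by genotype with edgeR. At an unadjusted p under 0.05 there was 1, and the share of all genes at that p was 12.4% in aPVAT and 26.0% in tPVAT. Skeletal muscle markers summed to 15.7 to 95.2 CPM in tPVAT controls and 9.41 to 28.6 CPM in tPVAT cKO. Of the 14 tested, 0 passed between the 2 groups (2 at an unadjusted p under 0.05, edgeR). In aPVAT controls 11 were lower than in tPVAT controls and 1 was higher (median −2.45, against 27.3% and 29.3% of all genes). Between the cKO groups these counts were 1 and 1. The aPVAT sums spanned 7.55 to 12.5 CPM (control) and 6.81 to 23.5 CPM (cKO). The 95.2 CPM belonged to tPVAT control library 4, with 269 CPM of heart markers and 7.79 CPM of Cox6a2. Library 3 had 24.7, 348 and 7.85 CPM. The part of skeletal muscle was not tested.

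**Figure D4:**
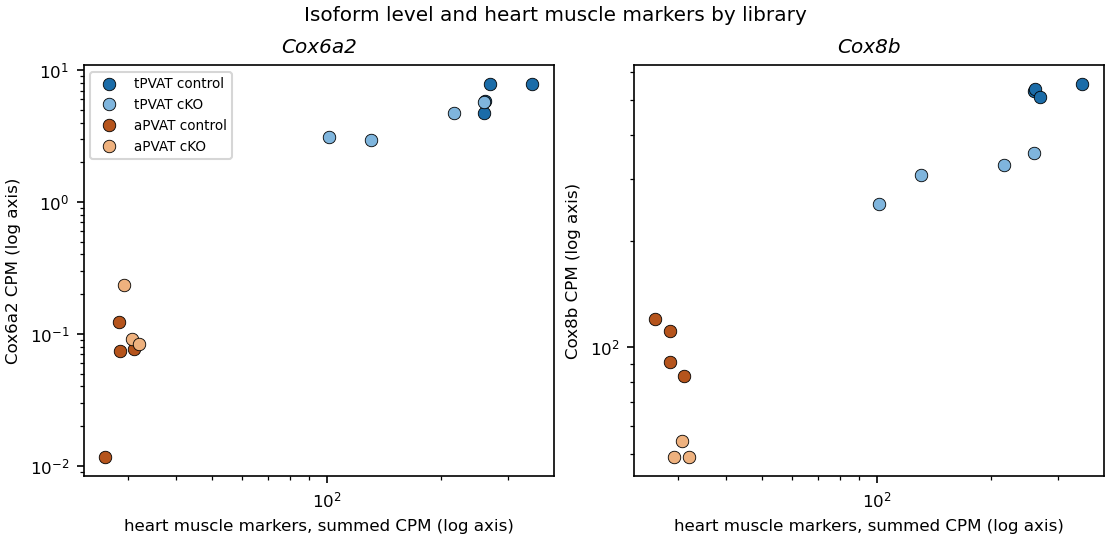
Level of Cox6a2 and of Cox8b in each of the 15 libraries against the summed level of 15 heart muscle markers, both in TMM-scaled CPM on log axes. Points are libraries, coloured by group. The aPVAT libraries lie between 26.1 and 32.0 CPM of heart markers, and the tPVAT cKO libraries spread from 101 to 260 CPM.

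Genes with the most similar course over the 15 libraries were found by the root mean square (RMS) difference of centred log2 CPM, among 11908 genes. Nearest to Cox7a1 were Cpt1b, which carries fatty acids into mitochondria in muscle and brown fat (RMS 0.259), and the fatty acid transporter and acyl-CoA synthetase Slc27a2 (0.306). Fabp3, a fatty acid binding protein of heart, came next at 0.532, then Perm1 (0.547) and Kng2 (0.553). Cpt1b averaged 20.9, 14.7, 2.72 and 0.254 CPM in tPVAT control, tPVAT cKO, aPVAT control and aPVAT cKO.

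Among the genes nearest to Cox8b were the thiolase Acaa2 of fatty acid oxidation (RMS 0.129), the acetyl-CoA synthetase Acss1 (0.134), the succinate-CoA ligase subunit Suclg1 (0.134) and the lactate dehydrogenase subunit Ldhb (0.153). Acaa2 averaged 1052, 674, 206 and 93.2 CPM in the 4 groups. Nearest to Cox6a2 was Tnni3, the troponin of heart muscle (0.731), followed by Tnnt2 (0.888), Elovl3 (0.982), Myl4 (1.08) and Gmpr (1.13). Nearest to the nearly flat Cox4i2 were Gfod1 (0.149), Bcl7a (0.152), Brpf1 (0.156), Med4 (0.156) and Pias4 (0.157).

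A further 7 nuclear subunits are outside the pairs above: Cox5a, Cox5b, Cox6b1, Cox6c, Cox7b, Cox7c and Ndufa4. All 7 fell in tPVAT cKO, with a median of −0.39, where 6.61% of all genes fell. Ndufa4, a late-joining subunit, fell from 524 ± 34.4 to 372 ± 17.2 CPM (−0.49, SE 0.0849, adjusted p = 0.00120, n = 4 and 4). Cox5a, which binds Cox4i1 in assembly, fell from 307 ± 6.74 to 224 ± 18.1 CPM (−0.45, adjusted p = 0.00257). Cox6c and Cox7b fell by 0.39 and 0.34 on the log2 scale. In aPVAT cKO 2 of the 7 fell (0.789% of all genes did), Cox7b (−0.41, adjusted p = 0.0137) and Cox5a (−0.41, adjusted p = 0.0358), and the median of the 7 was −0.34. Cox6c and Cox6b1 stood at −0.34 and −0.33 there (adjusted p = 0.0562 and 0.0832). Between depots in controls all 7 were lower in aPVAT (median −1.65; 27.3% of all genes were lower), and the 4 with the smallest p were Cox7b (−1.69), Cox5a (−1.89), Cox6b1 (−1.65) and Cox6c (−1.47).

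The 3 subunits of the mitochondrial genome form the catalytic core. In tPVAT cKO mt-Co3 (−0.41, adjusted p = 0.00493) and mt-Co2 (−0.40, adjusted p = 0.0185) fell, and mt-Co1 stood at −0.27 (adjusted p = 0.0529). Of all genes, 6.61% fell there. In aPVAT cKO 0 of the 3 passed with edgeR, with values from −0.20 to −0.063. At an unadjusted p under 0.05 there were 0, against 12.4% of all genes. Between depots in controls all 3 were lower in aPVAT (−1.56 to −2.08), where 27.3% of all genes were lower. Of 3 testis isoforms only Cox6b2 could be tested. Cox6b2 fell in tPVAT (−0.51, edgeR adjusted p = 0.0234), at 1.51 against 2.16 CPM. In aPVAT the difference was of similar size and missed the threshold (−0.46, SE 0.148, edgeR adjusted p = 0.178), at 1.27 against 1.76 CPM. Cox7b2 and Cox8c did not pass the filter on low counts.

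Assembly factors insert heme and copper and guide the subunits together. Of 28 listed, 26 were tested (Sco2 and Pet117 were not), and 8 fell in tPVAT cKO while 0 rose, with a median of −0.18 (of all genes, 6.61% fell and 5.44% rose). They included Smim20 (−0.40, adjusted p = 0.00151), which stabilises newly made mt-Co1, the copper chaperone Cox17 (−0.35, adjusted p = 0.00746), Tmem177 (−0.36, adjusted p = 0.0180), which acts in the making of mt-Co2, and Pet100 (−0.26, adjusted p = 0.0368). In aPVAT cKO 0 of the 26 passed with edgeR, and 6 were lower at an unadjusted p under 0.05 (Cox10, Cox17, Pet100, Taco1, Cmc2 and Smim20; 12.4% of all genes had such a p). Between depots 25 were lower in aPVAT controls and 23 in aPVAT cKO, against 27.3% and 25.4% of all genes. The smallest p in controls belonged to Lrpprc (−1.33), Cox17 (−1.59), Sco1 (−1.11) and Cox10 (−1.75). Of cytochrome c (Cycs) and its heme lyase (Hccs) neither passed in a genotype comparison with edgeR. At an unadjusted p under 0.05 there were 0 in tPVAT and 1 in aPVAT, against 26.0% and 12.4% of all genes. Both were lower in aPVAT of controls (−1.98 and −1.55). No gene of these lists passed the interaction test of edgeR. Of all genes only 0.626% passed with the aPVAT effect below the tPVAT effect and 0.158% with it above. At an unadjusted p under 0.05 there were 1 of the 3 mitochondrial subunits and 3 of the 26 assembly factors. The other lists had 0, and the share of all genes was 8.85%.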

How the data were processed

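Poly(A) RNA from snap-frozen tissue was made into stranded mRNA libraries, per the labels' protocols. The authors deposited raw counts per Ensembl gene for 15 libraries, as whole numbers without normalization. The submitters' processing notes give mm10 as the build and list Salmon, Subread and DESeq2 1.42.1 with no role. No counting tool, annotation or strand setting is named in these sources, so overlapping genes may share reads. The aPVAT cKO sample numbered 2 was not analysed here.

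Symbols and positions were taken from GENCODE M21 on GRCm38, and promoters from RefSeq. The analysis used R 4.3.3 with edgeR 4.0.16: filterByExpr with a minimum count of 10, TMM scaling, 1 mean per group over all 15 libraries, and quasi-likelihood F tests, adjusted by Benjamini-Hochberg over 19645 genes. The procedure was run on simulated data for the genotype comparisons only, with the same spread for all genes and no difference between depots. The depot and interaction tests were not part of that simulation. Log2 ratios of counts (0.5 added) were compared by two-sided exact permutation. Within a library, counts were also divided by the union of annotated exons. DESeq2 1.42.0 and limma 3.58.1 served as alternatives, along with other scalings, leaving out libraries, and replicate numbers as a block. RMS differences used log2 CPM with a prior count of 2 and genes with a mean of at least 1.

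Named were the 9 genes, up to 4 members per list with the smallest p, all called members of a list with 5 or fewer calls, Prdm16, Ucp1 and Adipoq, and 5 nearest genes per tissue isoform, of which 1 is not reported here. Gm6969, Emc8, Itgad, Myh6 and Myl2 were named after their values were seen. The 9 genes and the lists were chosen with earlier results of these data known. Intervals and errors cover the spread between libraries. No 2 libraries of a group agreed within counting noise: the lowest chi-square per degree of freedom was 9.85.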

Additional observations from a re-analysis of the deposited data

Results flagged for a closer look

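The genotype effect on Cox7a1 differed between the depots. It was −3.35 in aPVAT and −0.53 in tPVAT on the log2 scale, and the difference of −2.83 passed the interaction test of edgeR (adjusted p = 0.000597). All 3 aPVAT cKO libraries lay below all 4 aPVAT controls, and all 4 tPVAT cKO libraries below all 4 tPVAT controls. Both estimates were negative, but the tPVAT difference missed the threshold (edgeR adjusted p = 0.140). The tPVAT groups also overlapped in the log2 ratio of Cox7a1 to Cox7a2. Of 42 groups of 4 values checked for a single library that stands apart, 0 were flagged. The aPVAT cKO group, with 3 libraries, was not checked.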

How the results depend on the processing

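Of the 9 genes, the count that passed in tPVAT was 8 with limma-voom weights per library (5 as reported). In aPVAT it was 4 with library totals only, 4 without aPVAT control 2 and aPVAT cKO 4 (the libraries with more structural RNA) and 5 with DESeq2, against 2 as reported. With DESeq2, 5 of the other cytochrome oxidase genes passed in aPVAT (2 as reported). Leaving out 1 library gave 4 to 5 genes in tPVAT, 2 to 4 in aPVAT, 8 to 8 between depots and 1 to 1 in the interaction test. Of all 19645 genes in aPVAT, 199 fell and 115 rose with library totals only, against 155 and 146 as reported. Without the structural RNA libraries 199 fell and 163 rose of 19824. All-gene counts for limma-voom, DESeq2 and the fits with 1 library left out are not given here. Those changes cannot be read as particular to these genes.

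With library totals only, the depot difference turned positive for Cox7a2l (0.32 in controls, 0.27 in cKO) and Cox4i2 (0.55 in controls). The cKO depot difference of Cox4i2, 0.029 as reported, was −0.12 without the structural RNA libraries, −0.0098 with limma-voom weights, and ran from −0.12 to 0.19 with 1 library left out; its aPVAT genotype difference ran from −0.28 to 0.025. Interaction estimates near 0 changed sign: with library totals −0.038 for Cox7a2, −0.050 for Cox7a2l, −0.079 for Cox6a1 and −0.047 for Cox4i1, and without the structural RNA libraries −0.0056, −0.053, −0.073 and −0.029. With 1 library left out they ran from −0.0052 to 0.11 for Cox7a2, −0.011 to 0.098 for Cox7a2l and −0.044 to 0.070 for Cox6a1. Why these values moved was not tested.

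Longest coding transcripts as the length gave Cox7a1 shares of 55.6%, 51.0% and 22.9% in tPVAT control, tPVAT cKO and aPVAT control. For Cox8b they gave 55.3%, 46.3%, 34.6% and 22.6% in tPVAT control, tPVAT cKO, aPVAT control and aPVAT cKO, and for Cox4i2 0.377%, 0.364%, 0.770% and 0.834%.

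Whether equal numbers mark the same animal is not stated, and correlations among so few libraries cannot decide it. Deviations of same-numbered libraries correlated between −0.222 and 0.169. Between depots, 2 of 4 control pairs and 2 of 3 cKO pairs correlated best with their own number. Between genotypes, 3 of 4 tPVAT pairs and 1 of 3 aPVAT pairs did. With the replicate block, Cox7a1 (−0.56, adjusted p = 0.0432) and Cox8a (−0.27, adjusted p = 0.0357) passed in tPVAT; with animal as a random block (limma-voom) Cox7a1 did not (adjusted p = 0.0846). The block gave −0.018 for Cox4i2 between depots in cKO and −0.0095 for the Cox6a1 interaction, and the random block gave −0.018 for Cox4i2. With only the aPVAT libraries, Cox6a2 did not pass the filter on counts and gave no value.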
